A study of Homo sapiens with 4 samples.

Results

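The HITS-CLIP library of RBM10-depleted cells (siRBM10) was compared with that of Star-PAP-depleted cells (siStar-PAP). HITS-CLIP crosslinks proteins to RNA with UV light, pulls one protein down with an antibody and sequences the RNA fragments that come with it. The members of the comparison were all summits, the 1-bp positions of highest signal in each called peak, of these 2 lists on chromosomes 1 to 22. They numbered 276105 in the siRBM10 list and 306360 in the siStar-PAP list, 582465 of the 1031599 summits of all 3 Star-PAP lists. No summit was left out for its score. Both libraries came from HEK293 cells, an established human embryonic kidney line, transfected with siRNA against RBM10 or against Star-PAP. The cells of both were irradiated with 400 mJ per cm2 and then harvested, 48 h after transfection. In both, the RNA was recovered with the anti-Star-PAP antibody, and an IgG pull-down served as the reference of the peak calling. The remaining library, from cells with neither depletion, is called control and is used here only as a level beside the other two. Peak scores rise as the p-value falls. Over all sequences, 63.2% of the control summits had the same score of 1.33, the list median and close to the list minimum. The commonest score held 22.7% of the siRBM10 summits (3.25) and 22.8% of the siStar-PAP summits (2.92). Levels given for control thus rest mostly on peaks near the threshold of the peak calling. Whether the contrasts with control hold without these peaks was not tested. The labels name Oligofectamine as the transfection reagent and the methods of the paper name calcium phosphate. The names of the deposited lists place both depletion libraries in one set and the control library in another.

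Star-PAP, encoded by TUT1, is a nuclear non-canonical poly(A) polymerase that adds poly(A) tails to selected mRNAs and can add uridines to U6 snRNA. It works with the cleavage and polyadenylation machinery at the 3′ ends of mRNAs and is regulated by the lipid kinase PIPKIα and by protein kinases. RBM10 is an RNA-binding protein best known as a regulator of exon skipping, and it has been described as a partner of Star-PAP. In the siStar-PAP library the protein that the antibody recognises was the one depleted, whereas in the siRBM10 library its partner was depleted. The comparison therefore asks where the antibody recovered different RNA from cells that lacked the partner than from cells that lacked the protein itself.

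Each condition had 1 library, so no test between them was made, and the differences below have no replicate check. Depletion, library and sequencing cannot be told apart, and neither can less bound RNA and a less deeply sequenced library. Counts were compared as a scaled ratio, the share of siRBM10 summits that fell in a region over the share of siStar-PAP summits that fell there. A scaled ratio of 1 means equal shares, and the siRBM10 list held 0.901 times as many autosomal summits as the siStar-PAP list. The ranges given with scaled ratios are exact 95% intervals for a ratio of counts and those given with shares are 95% Wilson intervals. Both cover counting error only.

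The 2 targeted genes came first. TUT1 (chr11:62342517-62359109 in hg19) held 3 siRBM10 summits, 8 siStar-PAP summits and 5 control summits, a scaled ratio of 0.416 (0.0711 to 1.73). RBM10 (chrX:47004620-47046212) held 9 siRBM10 summits, 17 siStar-PAP summits and 7 control summits, a scaled ratio of 0.587 (0.231 to 1.39). Both genes had fewer summits in the siRBM10 list, and both intervals included 1. At RBM10 the 2 depletion lists shared 1 summit at the same base, position 47006716 of chromosome X. Peak numbers do not measure the level of either mRNA and so give no check of the depletions.

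Identical summit positions were the most direct point of contact between the 2 lists. At 1193 autosomal bases both lists had a summit, which was 0.432% (0.408 to 0.457) of the siRBM10 summits and 0.389% (0.368 to 0.412) of the siStar-PAP summits. Of these bases, 699 lay in introns, 286 between genes, 94 in coding sequence (CDS), 61 in exons of non-coding RNAs, 36 in 3′-UTRs, 12 in pseudogenes and 5 in 5′-UTRs. CDS made up 7.88% of the shared bases, against 3.15% of all siRBM10 summits and 3.19% of all siStar-PAP summits. This share also follows how densely both lists filled CDS, which is 1.26% of sequenced bases. It was not set against that density, so it does not show that CDS positions were shared more often. A control summit lay at the same base in 23 of the 1193 cases. Identical bases were not particular to the 2 depletion lists, since siRBM10 and control shared 926 and siStar-PAP and control shared 1492.

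To show what such sites look like, the 8 shared bases with the highest score ranks in both lists, outside UTRs, are given with 14 nt on either side. The deposited score of each peak, −log10 of its p-value, was used only for this order. Sequences are from hg19, on the strand of the gene, and the capital letter is the base at which both summits lay.
RN7SL151P, chr9:21699387-21699415, plus strand: ctatgcgtatcgggTgtccgcactaagtt
ABL1 CDS, chr9:133748256-133748284, plus strand: cccgggagcccccgTtctatatcatcact
FANCA intron, chr16:89816317-89816345, minus strand: aggccttcctgtgcCagcatactgctctt
FLT3 CDS, chr13:28608324-28608352, minus strand: gcaatttaggtatgAaagccagctacaga
RPS19P1 pseudogene, chr20:18485567-18485595, plus strand: agtgtcctccgccgGgtcctccaagccct
JAK2 intron, chr9:5073774-5073802, plus strand: gtggagacgagagtAagtaaaactacagg
SMAD4 CDS, chr18:48591841-48591869, plus strand: taggagagacatttAaggttccttcaagc
ERBB4 CDS, chr2:212530086-212530114, minus strand: gtttcattttcaagTatgctgatccagat

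The site of highest rank lay in RN7SL151P, a copy of the RNA of the signal recognition particle, with a score of 18.7 in the siRBM10 list and 25.6 in the siStar-PAP list. RPS19P1, a processed copy of the ribosomal protein gene RPS19, had scores of 21.9 and 9.78. Such copies can share reads with their parent genes, so the origin of these fragments is uncertain. The GC content of the 8 sequences ranged from 34.5% at ERBB4 to 69.0% at RPS19P1. The nearest control summit was 3074 bp away at JAK2, the closest of the 8, and 10882 bp away at SMAD4, the farthest.

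Of the 8 sites, 5 lay in receptors, kinases and signalling genes that are often mutated in cancer. ABL1, FLT3, JAK2 and ERBB4 encode tyrosine kinases, and SMAD4 encodes a transducer of TGF-β signals. A list of 50 genes that are frequently mutated in cancer was therefore drawn up after these values had been seen, so its counts describe these libraries and support nothing further. Coding sequence of every annotated transcript was counted here, and that of the 50 genes makes up 0.418% of all autosomal CDS bases. The 50 genes held 120 of 8799 siRBM10 CDS summits (1.36%, 1.14 to 1.63), 109 of 9914 siStar-PAP CDS summits (1.1%, 0.912 to 1.32) and 9 of 3796 control CDS summits (0.237%, 0.125 to 0.450). The intervals of the 2 depletion lists overlapped, and both lay above that of the control list.

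The share was higher where the summits of the 2 depletion lists lay close together. Among siRBM10 CDS summits with a siStar-PAP summit within 10 bp, 30 of 202 (14.9%, 10.6 to 20.4) lay in the 50 genes, spread over 22 of them. Within 50 bp it was 62 of 711 (8.72%, 6.86 to 11), in 30 genes, and within 500 bp it was 100 of 3153 (3.17%, 2.61 to 3.84). With the control list the close pairs were not seen there: 0 of 44 siRBM10 CDS summits and 0 of 45 siStar-PAP CDS summits with a control summit within 10 bp lay in these genes. Those zeros allow shares of up to 8.03% and 7.87% by the Wilson interval.

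SMAD4 had the most pairs within 50 bp, with 8. ATM, the kinase of the DNA damage response, had 5, and EGFR, a growth factor receptor, and STK11, a tumour suppressor kinase, had 4 each. At IDH2, a mitochondrial dehydrogenase, the summits lay at positions 90631924 and 90631914 of chromosome 15, with scores of 13.9 in the siRBM10 list and 11.8 in the siStar-PAP list. Over the 62 pairs the median score was 8.99 in the siRBM10 list and 6.52 in the siStar-PAP list, against list medians of 2.83 and 2.64. A control summit within 50 bp was found for 1 of the 62. The 50 genes are of the kind that targeted cancer sequencing panels commonly cover. Whether reads of other libraries entered both lists at these genes was not tested, so the shares of 14.9% and 8.72% cannot be read as binding by Star-PAP.

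Beyond identical bases, summits of the 2 depletion lists were also found near each other. Within 500 bp, which equals the MACS2 fragment length stated in the methods, 50345 siRBM10 summits (18.2%, 18.1 to 18.4) had a siStar-PAP summit, and 50243 siStar-PAP summits (16.4%, 16.3 to 16.5) had a siRBM10 summit. A control summit lay within 500 bp of 12.3% (12.2 to 12.4) of the siRBM10 summits and of 13.6% (13.4 to 13.7) of the siStar-PAP summits, although the control list was the longest. Most siRBM10 summits thus had no siStar-PAP summit within this distance.

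As a level to read these shares against, pairs of summits were counted at each distance and divided by the number of pairs per bp at 20 to 50 kb. This far level was 44.0 for the 2 depletion lists, 34.2 for siRBM10 with control and 37.5 for siStar-PAP with control. At the same base there were 27.1 times as many pairs as at that far level, and the same measure was 27.1 for siRBM10 with control and 39.7 for siStar-PAP with control. For the 2 depletion lists it was 1.49 times from 1 to 10 bp, 1.73 times from 11 to 50 bp and 1.16 times from 51 to 100 bp. From 201 to 500 bp it was 1.13 times, against 0.949 for siRBM10 with control and 1.01 for siStar-PAP with control. Most of the shares within 500 bp is thus what the far level gives, and does not show that single sites were shared. Within 50 bp on either side there were 8593 pairs, where the far level would give 4444.

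The excess was made up in part of single distances. At exactly 16 bp there were 501 pairs with the siRBM10 summit at the lower coordinate and 492 with the siStar-PAP summit there, 11.3 times the far level, while 15 and 17 bp stood at 1.73 and 1.2 times. At 32 bp there were 170 and 163 pairs (3.78 times) and at 267 bp there were 127 and 133 pairs (2.95 times). Each of these distances occurred about as often in either order. The same 16 bp was at 1.01 times the far level for siRBM10 with control and at 1.4 times for siStar-PAP with control. Instead, siRBM10 with control stood out at 60 and 61 bp (4.18 and 4.05 times), and siStar-PAP with control at 44 and 45 bp (7.02 and 7.22 times). The distance of the first pair of lists and that of the last add up to that of the middle pair. Whether the peak calling set the summits of each list off from the reads by a length of its own was not tested. The excess at these distances can therefore not be read as a measure of how close the bound sites were.

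**Figure D1:**
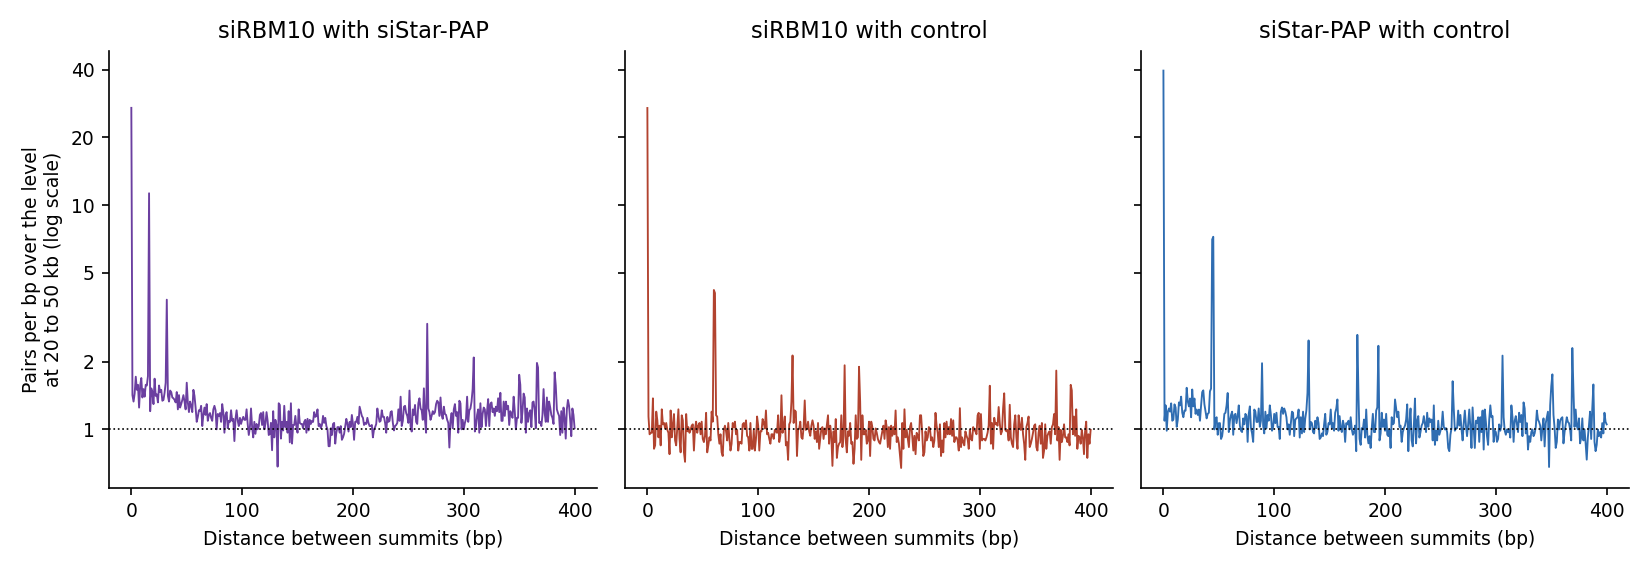
Number of summit pairs at each distance from 0 to 400 bp, divided by the number per bp at 20 to 50 kb (log scale), for siRBM10 with siStar-PAP, siRBM10 with control and siStar-PAP with control. The dotted line is the far level, and the left panel shows the peaks at 0 bp (27.1 times), 16 bp (11.3 times) and 32 bp (3.78 times).

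By annotation class, the share with a summit of the other depletion list nearby was highest in mRNA exons. Within 500 bp, 36.0% (35 to 37) of the siRBM10 summits in CDS had a siStar-PAP summit, 29.8% (28.7 to 30.9) of those in 3′-UTRs and 27.8% (25.7 to 29.9) of those in 5′-UTRs. In introns it was 18.2% (18 to 18.4) and between genes 14.7% (14.4 to 14.9). Near control summits the order was different, with 9.41% of the siRBM10 CDS summits, 12.5% of the intronic and 12.9% of the intergenic ones within 500 bp. These shares also follow how many summits the other list holds in a class, which in CDS was 9778 for siStar-PAP and 3741 for control. They therefore do not show that single positions were shared more often.

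Counted by gene, exons of 10809 of 19229 autosomal protein-coding genes held a siRBM10 summit and exons of 11289 held a siStar-PAP summit. Both lists marked 7954 genes, which was 73.6% (72.7 to 74.4) of the siRBM10 genes and 70.5% (69.6 to 71.3) of the siStar-PAP genes. The control list marked 6843 genes. It shared 4455 with siRBM10 (41.2% of the siRBM10 genes and 65.1% of the control genes) and 4620 with siStar-PAP (40.9% and 67.5%). These shares also follow how many of the 19229 genes the other list marked, which was 11289 for siStar-PAP and 6843 for control. Exons of 4470 genes carried summits of both depletion lists and none of control, and 1252 genes carried control summits alone. Most of the 19229 genes had no exonic control summit, so the 4470 are not a set marked out by the depletions. Between the depletion lists, 2855 genes had exonic summits on siRBM10 and not on siStar-PAP, and 3335 the other way round.

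Along the genome the 2 lists had nearly the same profile. Over the 2716 windows of 1 Mb with at least 20 summits in both lists together, Pearson's r of the siRBM10 and siStar-PAP counts was 0.962. With the control counts it was -0.609 for siRBM10 and -0.610 for siStar-PAP. Windows share their chromosome and base composition and are not replicates. Past 1.5-fold lay 91 of the 2716 windows (3.35%), 46 with a higher siRBM10 share and 45 with a lower one.

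**Figure D2:**
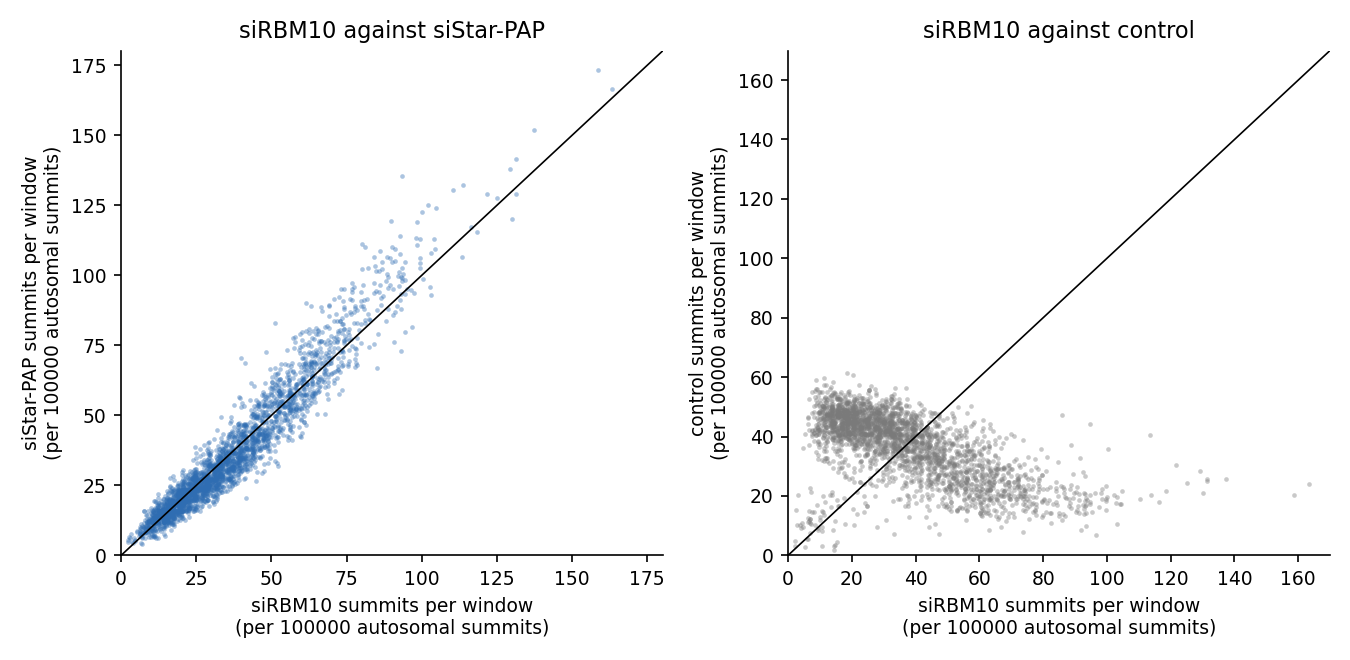
Summits per 1-Mb window, as a number per 100000 autosomal summits of the list, for siRBM10 (horizontal axis) against siStar-PAP (left) and against control (right). Each point is 1 of 2716 windows and the line marks equal values, along which the points of the left panel lie (r = 0.962), while those of the right panel fall (r = -0.609).

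The spread of the window ratios depended on the size of the window. Dispersion, the mean squared difference from equal shares in units of counting error, is 1 where counting error acts alone. It was 0.957 in windows of 0.1 Mb, 1.39 in windows of 1 Mb and 2.32 in windows of 5 Mb. Spread beyond counting error was thus seen in the broader windows and not in the smallest, where the counts were lowest. In windows of 5 Mb the middle of the distribution was narrow, with scaled ratios of 0.861 at the 5th percentile and 1.17 at the 95th.

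The 5 windows of 1 Mb with the highest ratios were led by chr21:11000001-12000000, beside the centromere, with 40 siRBM10, 21 siStar-PAP and 12 control summits and a scaled ratio of 2.11 (1.22 to 3.77). Next was chr10:106000001-107000000, which holds most of SORCS3, a sorting receptor of neurons, with 115, 63 and 125 summits and a ratio of 2.03 (1.48 to 2.80). Windows of chromosome 4 at 130 to 131 Mb (34, 19 and 148 summits, ratio 1.99, 1.1 to 3.68) and at 45 to 46 Mb (39, 23 and 149 summits, ratio 1.88, 1.1 to 3.3) and of chromosome 3 at 85 to 86 Mb, in CADM2, a cell adhesion gene (32, 19 and 193 summits, ratio 1.87, 1.03 to 3.49), followed. These windows were chosen for their ratios, and that of chromosome 10 stood on the largest counts.

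At the other end, chr9:40000001-41000000 held 7 siRBM10, 20 siStar-PAP and 59 control summits, a scaled ratio of 0.388 (0.139 to 0.956). The end of the long arm of chromosome 1 from 249 Mb held 6, 17 and 19 summits (0.392, 0.126 to 1.04), and chromosome 3 at 90 to 91 Mb held 9, 23 and 78 (0.434, 0.177 to 0.974). Chromosome 5 at 69 to 70 Mb, which holds SMN2 and SERF1B, had 6, 15 and 12 summits (0.444, 0.141 to 1.21), and chromosome 9 at 70 to 71 Mb had 8, 19 and 39 (0.467, 0.177 to 1.12). Several of these windows lie next to centromeres or in duplicated sequence, where uniquely mapped reads are scarce, and the counts of all 5 were low. The interval included 1 in 3 of the 5.

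The ends of chromosomes had a lower siRBM10 share. Within 5 Mb of a chromosome end lay 30457 siRBM10 and 37074 siStar-PAP summits, a scaled ratio of 0.912 (0.898 to 0.925). From 5 to 10 Mb the ratio was 1.0 (0.987 to 1.02), from 10 to 20 Mb 1.02 (1.01 to 1.04), and beyond 20 Mb 1.01 (1.0 to 1.02). By GC content, the highest decile of the 1-Mb windows had a ratio of 0.905 (0.895 to 0.916) and the lowest 0.921 (0.898 to 0.946). The ratios by chromosome position were not adjusted for GC content, so position and base composition cannot be told apart here. The first 5 Mb of chromosome 5 held 869 siRBM10 and 1238 siStar-PAP summits (0.779, 0.713 to 0.850), and the stretch of chromosome 13 from 110 to 115 Mb held 506 and 788 (0.712, 0.636 to 0.798). Low ratios were not limited to chromosome ends, since chromosome 4 from 60 to 65 Mb held 133 and 207 summits (0.713, 0.569 to 0.891). The only one of the 566 windows of 5 Mb past 1.5-fold (0.177%) was chromosome 21 from 10 to 15 Mb, with 186 and 137 summits (1.51, 1.2 to 1.89). Among whole chromosomes the ratio ran from 0.934 (0.913 to 0.956) on chromosome 19 and 0.938 (0.907 to 0.970) on chromosome 22 to 1.05 (1.02 to 1.08) on chromosome 16 and 1.06 (1.02 to 1.1) on chromosome 21. Between the 2 depletion lists 1.07% of the summits would have to change chromosome for the shares to be equal, against 15.2% between siRBM10 and control.

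The clearest difference between the 2 lists was in the base composition around the summit. Where the sequence within 100 nt of the summit had a GC content under 35%, there were 20800 siRBM10 and 34786 siStar-PAP summits, a scaled ratio of 0.663 (0.652 to 0.675). From 40% to 45% there were 55269 and 46617, a ratio of 1.32 (1.3 to 1.33), and from 45% to 50% 63298 and 54630, a ratio of 1.29 (1.27 to 1.3). At 60% and over there were 18997 and 29341, a ratio of 0.718 (0.705 to 0.732). The siRBM10 summits were thus gathered at intermediate GC, and the siStar-PAP summits reached further to both sides. The medians were nearly the same, at 47.3% and 48.3%, and both were above the 39.3% of the control summits.

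**Figure D3:**
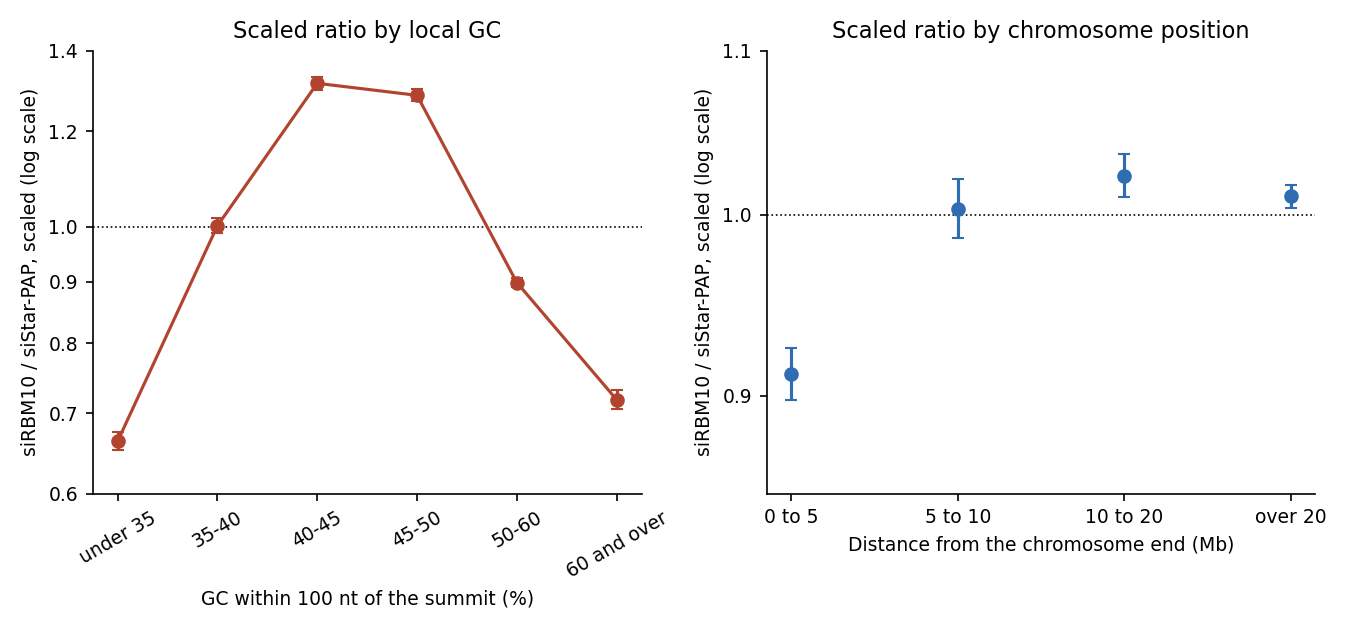
Scaled ratio of siRBM10 over siStar-PAP (log scale) by the GC content within 100 nt of the summit (left) and by the distance from the chromosome end (right), over all autosomal summits. Bars are 95% counting intervals, and the ratio runs from 0.663 below 35% GC to 1.32 at 40 to 45% and 0.718 at 60% and over. The ratios on the right are not adjusted for GC content.

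A similar shape was seen within introns, where the ratio was 0.670 (0.655 to 0.685) under 35% GC, 1.29 (1.27 to 1.31) at 40 to 45% and 0.690 (0.672 to 0.709) at 60% and over. It was also seen between genes, with 0.640, 1.38 and 0.612. In CDS the ratio was 0.961 (0.801 to 1.15) under 35%, with an interval that included 1, 1.29 (1.18 to 1.42) at 40 to 45%, and 0.841 (0.801 to 0.884) at 60% and over. In 3′-UTRs it was 0.70 (0.621 to 0.789) under 35%, 1.21 (1.11 to 1.33) at 40 to 45% and 1.01 (0.926 to 1.1) at 60% and over. The GC dependence of the library preparation and of the mapping was not tested.

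Since local GC differed between the lists, ratios were also set against that of all summits of the same GC content, in bins of 2.5%, and are called ratios at the same GC. For windows of 5 Mb this brought the dispersion from 2.32 to 1.44, and for windows of 1 Mb from 1.39 to 1.16. The window of chromosome 10 kept a ratio of 1.89 (1.38 to 2.61).

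Runs of U, to which several 3′-end and splicing factors bind, followed the same line. On the strand of the gene, 4.03% (3.92 to 4.14) of the 41-nt stretches around intronic siRBM10 summits held 6 consecutive U, against 4.74% (4.63 to 4.85) for siStar-PAP and 6.43% (6.31 to 6.55) for control. In 3′-UTRs the shares were 2.49% (2.12 to 2.91), 3.89% (3.44 to 4.39) and 5.22% (4.53 to 6.0). In CDS, 41 of 8314 and 45 of 9318 stretches held such a run (0.493% and 0.483%), and the intervals overlapped. Runs of 6 G were found in 0.519% (0.481 to 0.560) of the intronic siRBM10 stretches and in 0.581% (0.543 to 0.622) of the siStar-PAP ones, with overlapping intervals. These shares were not set at the same GC.

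Annotation classes took almost the same shares of both lists. CDS held 8699 siRBM10 summits (3.15%, 3.09 to 3.22) and 9778 siStar-PAP summits (3.19%, 3.13 to 3.25), and in the control list it held 0.977%. The scaled ratio of the 2 depletion lists was 0.987 (0.959 to 1.02) in CDS and 0.987 (0.925 to 1.05) in 5′-UTRs. The 3′-UTRs, where Star-PAP acts, held 6558 siRBM10 summits (2.38%, 2.32 to 2.43) and 6928 siStar-PAP summits (2.26%, 2.21 to 2.31), a ratio of 1.05 (1.02 to 1.09). Introns were slightly lower on siRBM10 (58.7% against 59.5%, ratio 0.985, 0.978 to 0.992) and intergenic sequence slightly higher (31.4% against 30.5%, ratio 1.03, 1.02 to 1.04). Exons of non-coding RNAs (0.989, 0.961 to 1.02) and pseudogenes (0.995, 0.926 to 1.07) had intervals that included 1.

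At the same GC, the 3 parts of mRNA exons all stood higher on siRBM10. The ratio was 1.11 (1.08 to 1.14) in CDS, 1.09 (1.06 to 1.13) in 3′-UTRs and 1.16 (1.09 to 1.24) in 5′-UTRs, while introns were at 0.977 (0.970 to 0.984) and intergenic sequence at 1.02 (1.01 to 1.03). For CDS and 5′-UTRs the side of 1 therefore depended on whether local GC was taken into account. Both depletion lists were far from control in these classes, with CDS shares 3.23 and 3.27 times, 3′-UTR shares 2.38 and 2.26 times and 5′-UTR shares 4.67 and 4.73 times that of the control list.

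**Figure D4:**
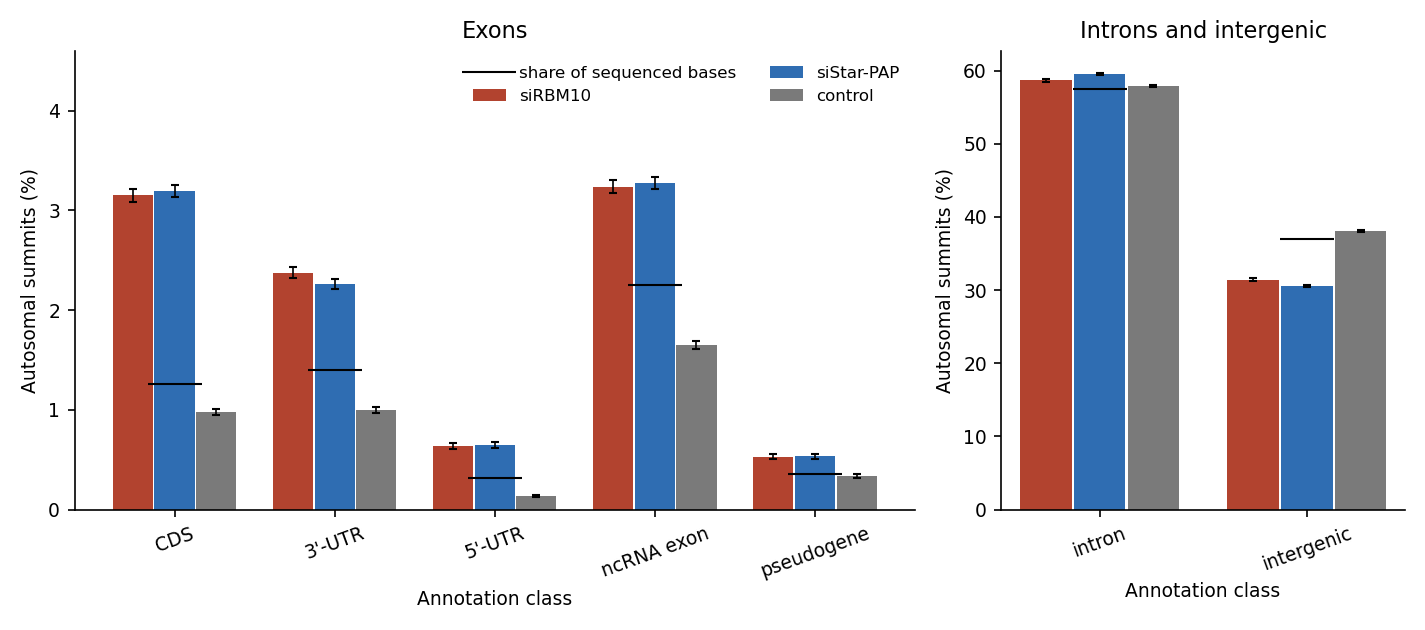
Share of autosomal summits in each annotation class for siRBM10, siStar-PAP and control, with 95% Wilson intervals as bars and the share of sequenced bases as a black line. The bars of the 2 depletion lists are nearly level, as in CDS (3.15% and 3.19%), and both exceed control in each exon class.

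Before local GC was taken into account, siRBM10 summits around gene ends were fewest relative to siStar-PAP just upstream of transcription starts. In the 500 nt before the annotated 5′ ends of protein-coding genes there were 1421 siRBM10, 1918 siStar-PAP and 439 control summits, a scaled ratio of 0.822 (0.767 to 0.881). In the 500 nt after it there were 1820, 2203 and 520, a ratio of 0.917 (0.861 to 0.976). At the same GC these 2 ratios were 0.949 and 1.14. At the 3′ ends, where poly(A) tails are added, the last 500 nt of genes held 1691, 1845 and 786 summits, a ratio of 1.02 (0.951 to 1.09), and the 500 nt beyond held 1453, 1697 and 823, a ratio of 0.95 (0.885 to 1.02). At the same GC these were 1.12 and 0.995.

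Within introns, siRBM10 summits were relatively fewest in the 100 nt next to splice sites. In introns of at least 4000 nt, the first 100 nt after the 5′ splice site held 665 siRBM10, 880 siStar-PAP and 571 control summits, a scaled ratio of 0.838 (0.757 to 0.928). The last 100 nt before the 3′ splice site held 836, 1091 and 646, a ratio of 0.850 (0.776 to 0.931). Between 100 and 500 nt into the intron the ratios were 0.969 (0.921 to 1.02) at the 5′ and 0.934 (0.886 to 0.986) at the 3′ splice site, or 1.01 and 0.944 at the same GC. From 500 to 1999 nt the ratios were 0.949 (0.925 to 0.972) and 0.938 (0.914 to 0.963). At the same GC the values for the 100 nt were 0.921 and 0.891, and those from 500 to 1999 nt were 0.945 and 0.927. The gap between near and far was thus smaller at the same GC. These values have no interval, so whether the 100 nt differed from the rest of the intron at the same GC was not tested.

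Over protein-coding genes the 2 lists were again close to each other. Spans of the 19229 genes held 162099 siRBM10 and 184711 siStar-PAP summits, a scaled ratio of 0.974, with summits in overlapping genes counted in each. Of the 5433 genes with at least 20 summits in both lists together, 1179 (21.7%) lay past 1.5-fold, 464 with a higher and 715 with a lower siRBM10 share. The dispersion was 0.985, so the spread of ratios over genes was about that of counting error. The interval lay above 1 for 82 genes and below 1 for 110, 3.53% of those compared. Among the 1580 genes with at least 50 summits the share past 1.5-fold was 10.6% and the dispersion was 1.17. By length, the decile of the longest genes had a ratio of 1.02 (1.01 to 1.03), and the other 9 deciles lay between 0.928 and 0.995.

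The genes named next were chosen for their ratios, from the 10 most extreme on each side among the 1580, and are a description. MFAP3, a microfibril-associated gene (chr5:153418519-153600038), had the highest ratio, with 38 siRBM10, 15 siStar-PAP and 19 control summits and a scaled ratio of 2.81 (1.51 to 5.50). RAPGEF5, an exchange factor for Rap GTPases, held 35, 17 and 49 summits (2.28, 1.25 to 4.35). RCAN2, a regulator of calcineurin, held 37, 20 and 38 (2.05, 1.16 to 3.73). In all 3 genes the siRBM10 count exceeded the siStar-PAP count although its list was shorter.

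NEDD9, a scaffold of cell adhesion, held 35 siRBM10, 19 siStar-PAP and 13 control summits (2.04, 1.14 to 3.78). NFE2L2, the transcription factor NRF2 of the oxidative stress response, held 36, 20 and 26 (2.0, 1.13 to 3.64). GALNT17, a glycosyltransferase-like gene, held 78, 46 and 102 (1.88, 1.29 to 2.77) and PDE4B, a cAMP phosphodiesterase, held 51, 30 and 65 (1.89, 1.18 to 3.07). The other 3 were CADPS, which acts in vesicle release (34, 19 and 76), DNER, a neuronal cell-surface protein (36, 21 and 54), and the orphan nuclear receptor gene ESRRG (41, 25 and 89), with ratios from 1.82 to 1.99. At the same GC the 10 ratios ranged from 1.70 for PDE4B to 2.79 for MFAP3, and the interval then included 1 for DNER (0.995 to 3.16).

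On the other side, MCF2L, a guanine nucleotide exchange factor gene on chromosome 13 (chr13:113548692-113754056), held 24 siRBM10, 62 siStar-PAP and 31 control summits, a scaled ratio of 0.430 (0.256 to 0.698). It lies within the stretch of chromosome 13 described above. NCOA1, a coactivator of nuclear receptors, held 18, 42 and 56 (0.476, 0.258 to 0.844). In both the siStar-PAP list held more than 2 times the siRBM10 count.

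KCNG2, a potassium channel subunit, held 19 siRBM10, 44 siStar-PAP and 11 control summits (0.479), and PEX14, of peroxisomal import, held 20, 46 and 24 (0.482). TTC7A held 21, 48 and 12 (0.485), and MEGF6 held 16, 36 and 1 (0.493). BRIP1, a helicase of DNA repair (18, 39 and 42), and RTN4RL1, a relative of the Nogo receptor (18, 39 and 9), each had a ratio of 0.512. At the same GC the ratios of the 8 genes named on this side ranged from 0.483 for NCOA1 to 0.621 for MEGF6, and the intervals of KCNG2, MEGF6 and RTN4RL1 then included 1.

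The 5 genes with the most summits of both lists were long genes. RBFOX1, a splicing regulator that spans 2473540 bp, held 255 siRBM10, 214 siStar-PAP and 379 control summits, a scaled ratio of 1.32 (1.1 to 1.59). RUNX1, a transcription factor of blood formation, held 200, 148 and 163 (1.5, 1.21 to 1.87). KAZN held 213, 209 and 132 (1.13, 0.930 to 1.38), and PTPRN2, a receptor-type phosphatase of secretory vesicles, held 181, 185 and 66 (1.09, 0.880 to 1.34). CAMTA1, a calmodulin-binding transcription activator, held 169, 230 and 91 (0.815, 0.664 to 0.999). Set at the same GC, the ratio was 1.37 (1.1 to 1.71) for RUNX1 and 1.25 (1.02 to 1.55) for PTPRN2. It was 1.2 (0.996 to 1.45) for RBFOX1, 1.13 (0.929 to 1.37) for KAZN and 0.876 (0.714 to 1.07) for CAMTA1. RUNX1 was thus the only one of the 5 whose interval lay apart from 1 both ways.

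Of a list of 47 genes, taken from those that the study followed one by one, 42 held a siRBM10 summit and 42 a siStar-PAP summit. Together they held 531 and 571 summits, a scaled ratio of 1.03 (0.915 to 1.16). The study chose them with results of these libraries in hand, so their totals are no independent evidence of a direction. With at least 20 summits there were 16 genes, 2 past 1.5-fold higher and 3 past it lower, against 21.7% of all genes compared. Their median ratio was 0.918, beside 0.962 for all 5433 genes.

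KCNMA1, a calcium-activated potassium channel, held 94 siRBM10, 84 siStar-PAP and 53 control summits, a scaled ratio of 1.24 (0.915 to 1.69). COL5A1, a fibrillar collagen, held 53, 74 and 8 (0.795, 0.548 to 1.15), and BRCA1, of DNA repair, held 43, 53 and 14 (0.90, 0.588 to 1.37). Both depletion lists were above control in these 3 genes, and the intervals between them included 1. RTN1, a reticulon, held 25, 18 and 46 (1.54, 0.808 to 3.0). CAMK2B, a calmodulin-dependent kinase, held 15, 29 and 6 (0.574, 0.286 to 1.11). PAK1, a kinase of the cytoskeleton, held 12, 23 and 24 (0.579, 0.263 to 1.21), and ZEB1, a repressor of epithelial genes, held 9, 17 and 35 (0.587, 0.231 to 1.39). The intervals of these 4 genes included 1 as well.

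Of the genes below 20 summits, WIF1, a secreted Wnt inhibitor, held 11 siRBM10, 3 siStar-PAP and 12 control summits (4.07, 1.07 to 22.7). VEGFA, an angiogenic growth factor, held 9, 6 and 1, of which 8, 6 and 1 were exonic. The oxidative stress genes NQO1 and HMOX1 held 5, 5 and 0 and 3, 6 and 2 summits, and AGTR1, the angiotensin receptor, held 2, 4 and 8. CD1C and PRSS58 were without a summit in any of the 3 lists, and RGS4 and GIMAP6 were without one in both depletion lists. CST4 held 1 siStar-PAP summit and STC1 held 1 siRBM10 summit. Among the genes named here with summits in both depletion lists, the interval lay apart from 1 for WIF1 and included 1 for VEGFA, NQO1, HMOX1 and AGTR1.

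**Figure D5:**
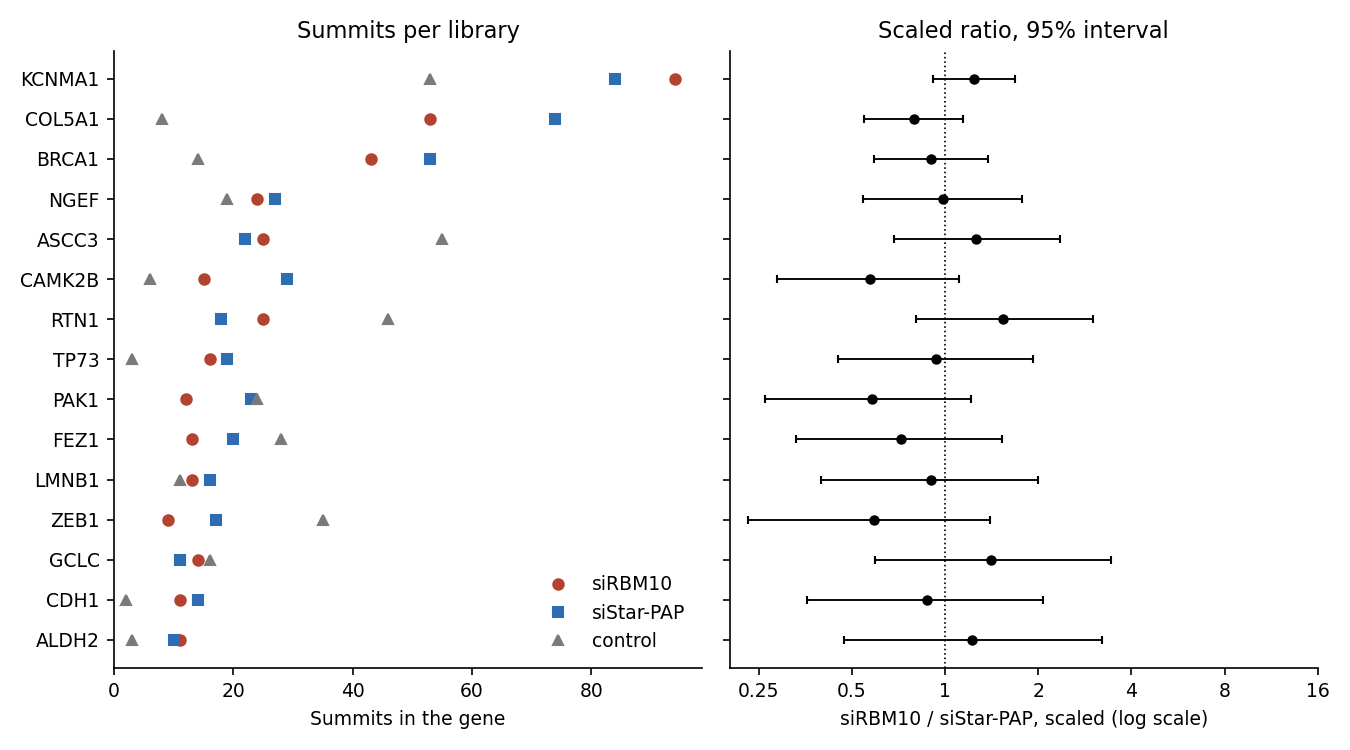
Summits per library (left) and scaled ratio of siRBM10 over siStar-PAP with its 95% counting interval (right, log scale) for 15 of the 16 genes of the list taken from the study that held at least 20 summits in both depletion lists together. KCNMA1 (94 and 84), COL5A1 (53 and 74) and BRCA1 (43 and 53) hold the most, and all 15 intervals include 1.

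The machinery with which Star-PAP works was covered by 22 genes of cleavage and polyadenylation. All held a siStar-PAP summit and 21 a siRBM10 summit, 174 and 116 in sum, a scaled ratio of 0.740 (0.580 to 0.941), or 0.774 at the same GC. The scaled count was lower on siRBM10 in 16 of the 22 and higher in 6. All genes compared leaned the same way, with a median ratio of 0.962 and, past 1.5-fold, 715 lower and 464 higher of 5433. WDR33, which reads the AAUAAA signal, held 17 siRBM10, 26 siStar-PAP and 21 control summits, SYMPK, the scaffold symplekin, held 13, 21 and 5, and the phosphatase gene SSU72 held 10, 17 and 0. CPSF4 held 4, 11 and 1, and CPSF3, the endonuclease, held 5, 10 and 11. PCF11, a termination factor, went the other way with 5, 2 and 3. Only WDR33, SYMPK and SSU72 reached 20 summits, and each of the 3 intervals included 1. Of these 3, SSU72 alone lay past 1.5-fold, against 21.7% of all genes compared.

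Among partners of Star-PAP, PIP5K1A, the lipid kinase PIPKIα, held 14 siRBM10, 16 siStar-PAP and 5 control summits, CSNK1E held 14, 12 and 4, and PRKCD held 11, 9 and 0. CSNK1A1, the kinase CKIα, held 7, 10 and 7. The 5 autosomal genes of this list, TUT1 included, summed to 49 and 55 summits, a scaled ratio of 0.989 (0.659 to 1.48). They were thus about even between the lists.

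The 38 splicing factor genes held 307 siRBM10 and 355 siStar-PAP summits, a scaled ratio of 0.960 (0.821 to 1.12), with 19 genes higher and 19 lower. Of the 12 with at least 20 summits, 0 lay past 1.5-fold higher and 1 lower, against 21.7% of all genes compared. That gene was RBM39, a U2AF-related factor, with 11, 20 and 5 summits (0.610, 0.264 to 1.34). RBM6 and RBM5, paralogues of RBM10, held 26, 33 and 10 and 7, 8 and 2 summits. Of the genes whose splicing RBM10 is known to regulate, NUMB, a Notch inhibitor, held 21, 26 and 23, BCL2L1, an apoptosis regulator, held 12, 15 and 5, and the death receptor gene FAS held 1, 0 and 1. Differences at these genes were within counting error.

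Of nuclear long non-coding RNAs, NEAT1, the RNA scaffold of paraspeckles, held 17 siRBM10, 18 siStar-PAP and 0 control summits. KCNQ1OT1, an imprinted antisense transcript that overlaps KCNQ1, held 14, 19 and 16, with strand not given. MEG3 held 6, 15 and 6, MALAT1 held 2, 6 and 2, and NORAD held 1, 4 and 0. The 7 RNAs of the list summed to 44 and 66, a ratio of 0.740 (0.493 to 1.1). Small RNA genes held few summits, with 42 and 38 in snoRNA genes, 51 and 49 in miRNA genes, 19 and 14 in snRNA genes and 72 and 86 in the group annotated as miscellaneous RNA.

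The larger gene families were chosen as expressed or silent groups. The 80 ribosomal protein genes held 240 siRBM10, 266 siStar-PAP and 76 control summits, a scaled ratio of 1.0 (0.837 to 1.2). The 496 zinc finger genes held 3124, 3748 and 2885 (0.925, 0.882 to 0.970), and of the 96 with at least 20 summits 9 lay past 1.5-fold higher and 15 lower, a share close to the 21.7% of all genes. The protocadherin clusters held 596, 737 and 452 (0.897, 0.804 to 1.0). Their genes share long overlapping spans, so the same summits were counted in several genes and this interval is too narrow. Past 1.5-fold lay 0 higher and 7 lower of 33, beside 464 higher and 715 lower of all 5433 genes. The 7 are not separate observations for the same reason. Histone genes held 44, 35 and 21 (1.39, 0.875 to 2.24).

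Olfactory receptor genes, which are silent outside the nose, held 203 siRBM10, 160 siStar-PAP and 436 control summits, a scaled ratio of 1.41 (1.14 to 1.74), or 1.42 at the same GC. Of the 413 genes, 94 had a higher and 51 a lower scaled count on siRBM10, and 268 had no summit in either depletion list. Many rested on 1 list, since 58 genes had summits only on siRBM10 and 41 only on siStar-PAP. Over all 19229 protein-coding genes these numbers were 945 and 1133. How many of all genes had a higher or lower scaled count was not computed. The 3 genes that reached 20 summits all lay past 1.5-fold higher, where 464 of all 5433 genes did. These genes carried summits in all 3 lists, and the control list had the most.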

How the data were processed

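The authors collapsed duplicate HITS-CLIP reads with the CLIP Tool Kit, mapped them to hg19 with BWA and called peaks with MACS2 against the IgG library at a p-value of 0.05. Each deposited list gives 1-bp summits with the −log10 p-value of the peak, without strand. The submitters' processing notes also name FastQC and Cutadapt. The lists hold no read depth. Summits were placed on GENCODE release 44, as lifted to hg19, coding sequence taking precedence over UTRs, other exons, introns and intergenic sequence, in that order. Scores were not filtered, since the comparison uses all summits and scores of separate libraries are not on 1 scale, so a stricter peak threshold was not tried. Genes needed 20 summits in both lists together for a ratio, and the named genes were the 10 highest and 10 lowest ratios at 50 or more, the 5 with the most summits, and members of listed groups. Sequences on chromosome 8 were not shown, and some genes that meet the rule are not reported here. Functions were tested on simulated data. The members and gene lists were chosen with earlier results of these data known. The list of 50 cancer genes and the ratio at the same GC were added after seeing the data.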

Additional observations from a re-analysis of the deposited data

Results flagged for a closer look

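Summits on unplaced and alternative sequences of hg19 were outside the comparison of autosomes. The siRBM10 list held 683 of them, or 247 per 100000 autosomal summits, and the siStar-PAP list held 471, or 154 per 100000. The control list held 559, or 146 per 100000. Both depletion lists were therefore above control, the siStar-PAP list only slightly. The unplaced sequence gl000225 alone held 73 siRBM10, 24 siStar-PAP and 6 control summits. The difference has no replicate check.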

How the results depend on the processing

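Of 46 alternative settings 29 kept the value within its 95% counting interval and 17 moved it beyond. The share of genes past 1.5-fold, 21.7%, was 31.1% with a minimum of 10 summits, 10.6% with a minimum of 50, 4.71% at a fold of 2 and 19.7% with nearby summits merged. The share of windows past 1.5-fold, 3.35%, was 25.5% in windows of 0.1 Mb, 0.177% in windows of 5 Mb and 2.72% at the same GC. The share of siRBM10 summits with a siStar-PAP summit, 18.2% within 500 bp, was 0.432% at the same base, 4.97% within 100 bp, 10.0% within 250 bp, 30.7% within 1000 bp and 17.4% without chromosome 19. The share of siRBM10 genes also marked by siStar-PAP, 73.6% over exons, was 94.2% over any part of the gene and 62.4% with at least 2 summits. The class ratios at the same GC were 1.11 for CDS, 1.09 for 3′-UTRs and 0.977 for introns, of which the first lay on the other side of 1. The counts themselves limit single genes. No paired analysis was possible because each condition had 1 library, and leaving out a library was not possible for the same reason.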
